A study of Mus musculus with 10 samples.

Results

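The comparison described here set MEFs that lack MIDEAS directly against MEFs that lack DNTTIP1, and asked of 15569 genes whether their transcript levels differed between these knockouts. The genes were chosen from 53801 in the deposited table as those with a mean of at least 10 normalized counts over the 5 knockout libraries (16166 genes), without 588 genes on chromosome X or Y and 9 with no place in the annotation. The knockout groups came from separate mouse families, so for each gene the difference between the knockouts is given beside the difference between the wild types of the same families. MEFs are embryonic fibroblasts, here grown from day 13.5 embryos (C57BL/6 in the labels, C57BL/6J in the study's methods) whose heads, livers and hearts had been removed. The 3 MIDEAS-/- lines carried on both chromosomes the MIDEAS-del1 allele, a short CRISPR deletion in the coding sequence of Mideas, and 3 MIDEAS+/+ lines of that family carried none. The 2 DNTTIP1-/- lines carried the DNTTIP1-del1 allele, a short deletion in the coding sequence of Dnttip1, and 2 DNTTIP1+/+ lines of that family carried none. No line received a treatment. Both alleles were carried in the germ line, so each line came from an embryo of its genotype. The study describes the lines of each group as independent.

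MIDEAS and DNTTIP1 are subunits of MiDAC, one of the complexes through which the deacetylases HDAC1 and HDAC2 act on chromatin. MIDEAS, encoded by the gene listed as Elmsan1, is the co-repressor scaffold that holds the enzyme through its ELM2-SANT domain. DNTTIP1 is the dimerising and DNA-binding subunit. A deacetylase complex removes acetyl groups from histones, which generally lowers transcription nearby, and lines that lack different subunits of one complex can be compared to see whether their transcripts differ.

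The values are normalized counts: reads per gene divided by a size factor for each library. Reads summed to 12339970 to 19761295 per library. MIDEAS-/- replicate 1 stood apart, with 9.38% of its reads in its 10 most abundant genes (5.14% to 6.50% in the other 9 libraries) and 6.60% in mitochondrial genes (2.82% to 4.11%). Embryos of both sexes were mixed unequally: DNTTIP1-/- replicate 1, DNTTIP1+/+ replicate 1 and MIDEAS+/+ replicate 1 had 3502 to 4245 normalized counts over 4 Y-linked genes and 0 of Xist, whereas the other 7 libraries, all 3 MIDEAS-/- libraries among them, had 0 to 21.9 over the Y-linked genes and 3299 to 8016 of Xist. The fibroblast genes Col1a1 (10294 to 14467 normalized counts), Vim (3057 to 4340.2) and Pdgfra (208 to 2809) were present in all 10 libraries.

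No gene passed the test between the 2 knockouts. limma on log2(normalized count + 1), fitted over all 10 libraries in 4 groups, called 0 of 15569 genes (0%) at a Benjamini-Hochberg adjusted p under 0.1, and the smallest adjusted p was 0.137. On the recovered reads, edgeR also called 0, with 1118 genes at an unadjusted p under 0.05. DESeq2 called 119, with 1249 at that unadjusted p, and of the 119 called 53 were higher and 66 lower in MIDEAS-/- MEFs. At an unadjusted p under 0.05, limma gave 507 higher genes (3.26%) and 562 lower genes (3.61%), 1069 in all. Below, genes with such a p are described as nominally higher or lower, which is no call. For 63.3% of genes the whole 95% interval of the knockout difference lay between -1 and 1 on the log2 scale, that is, within a 2-fold difference either way, and the median distance from the estimate to either end of the interval was 0.52. The knockout libraries did not overlap, with a log2 difference of at least 1 in size, for 384 genes (2.47%).

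More genes were nominally different between the wild types of the families than between the knockouts, a contrast of counts that was not tested itself. limma called 0 genes (0%) between MIDEAS+/+ and DNTTIP1+/+ MEFs as well, but 999 (6.42%) were nominally higher and 649 (4.17%) nominally lower in MIDEAS+/+, 530 genes (3.4%) had non-overlapping libraries and a log2 difference of at least 1 in size, and the SD of log2 differences across genes was 0.51, against 0.45 between the knockouts. In all 1648 genes had an unadjusted p under 0.05. edgeR called 0 (1629 at that p) and DESeq2 261 (1859). Leaving out MIDEAS-/- replicate 1, which is not part of that comparison but of its estimate of spread, turned the 0 of limma into 230.

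Genes nominally different between the knockouts mostly had a difference of the same sign between the wild types. Of the 507 nominally higher genes, 429 (84.6%) had a positive difference between the wild types too, with a median of 0.31 there and 0.66 between the knockouts. Of the 562 nominally lower genes, 454 (80.8%) had a negative wild-type difference, with medians of -0.25 and -0.53. Nominal in both with the same sign were 284 genes, and nominal in both with opposite signs were 11 (1 higher and 10 lower in MIDEAS-/-). Across all 15569 genes, Pearson's r of the 2 differences was 0.27, Spearman's rho 0.28 and the slope 0.23. The 2 differences share no library but do share a fit, and genes are not independent replicates. The r rested on single libraries: it was 0.07 without DNTTIP1+/+ replicate 2, 0.11 without DNTTIP1-/- replicate 1, 0.13 without MIDEAS-/- replicate 2 and 0.40 without DNTTIP1+/+ replicate 1.

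**Figure D1:**
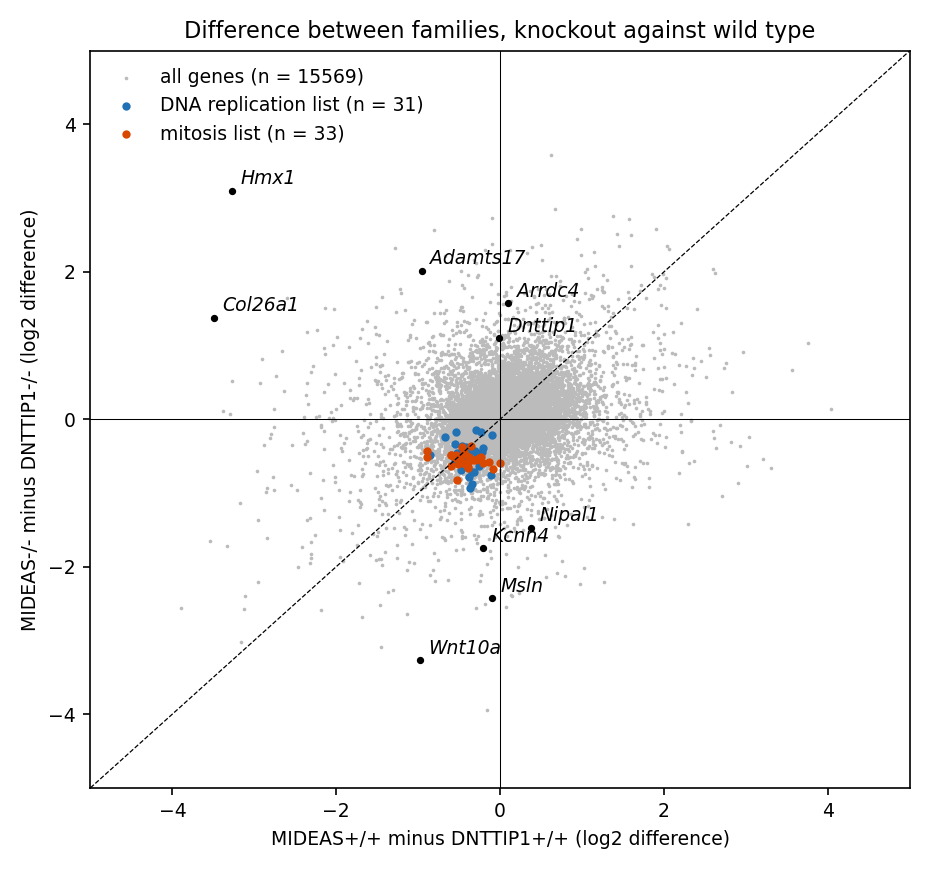
Log2 difference of each of 15569 genes between the wild types (x axis, MIDEAS+/+ minus DNTTIP1+/+) and between the knockouts (y axis, MIDEAS-/- minus DNTTIP1-/-); 1 point is 1 gene, the dashed line marks equal differences, and the mitosis and DNA replication lists are coloured. Msln and Dnttip1 lie near 0 on the x axis and away from 0 on the y axis, Hmx1 lies at -3.27 and 3.10, and the coloured lists lie below and mostly to the left of 0.

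The subunits of MiDAC were compared first. Dnttip1 (ENSMUSG00000017299, chromosome 2, 164745983 to 164768607, mm10) had 414, 368 and 408 normalized counts in the MIDEAS-/- libraries and 197 and 173 in the DNTTIP1-/- libraries. Its 5 wild-type libraries lay between 434 and 443, so the DNTTIP1-/- libraries stood below all 8 others, in the direction of their label. The knockout difference was 1.10 (standard error 0.14, 95% interval 0.78 to 1.42), and its adjusted p of 0.137 missed the threshold. Leaving out 1 library gave 1.01 to 1.19 and an adjusted p of 0.205 to 0.918. Exons of Dnttip1 overlap Gm11457 on the other strand, whose reads cannot be told apart without a stated strand setting.

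Elmsan1 (ENSMUSG00000042507, chromosome 12, 84149176 to 84218881) had 1038, 1728 and 1590.4 normalized counts in MIDEAS-/- MEFs against 1453 and 2095 in DNTTIP1-/- MEFs, and the groups overlapped. Its wild-type libraries had 1272, 1332 and 1576 in MIDEAS+/+ and 973 and 1246 in DNTTIP1+/+. The mean level of Elmsan1 was not lower in MIDEAS-/- than in MIDEAS+/+ libraries, so unlike that of Dnttip1 it did not distinguish the labelled genotypes. Its knockout difference was -0.30 (95% interval -0.83 to 0.23). The deacetylase genes Hdac1 (-0.21, 95% interval -0.51 to 0.08) and Hdac2 (-0.11, -0.40 to 0.17) and the Mideas paralog Trerf1 (-0.01, -0.40 to 0.38) had intervals between -1 and 1, and the testis paralog Zfp541 had too few counts to be tested. Of 36 tested subunits of the other class I HDAC complexes, 1 was nominally higher, Phf21a of the CoREST complex (0.42), and none was nominally lower. Over all genes, 3.26% were nominally higher and 3.61% nominally lower. Without MIDEAS-/- replicate 1, 3 of these subunits were nominally higher and 2 lower. The median of that list was 0.00, against -0.01 for all genes.

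**Figure D2:**
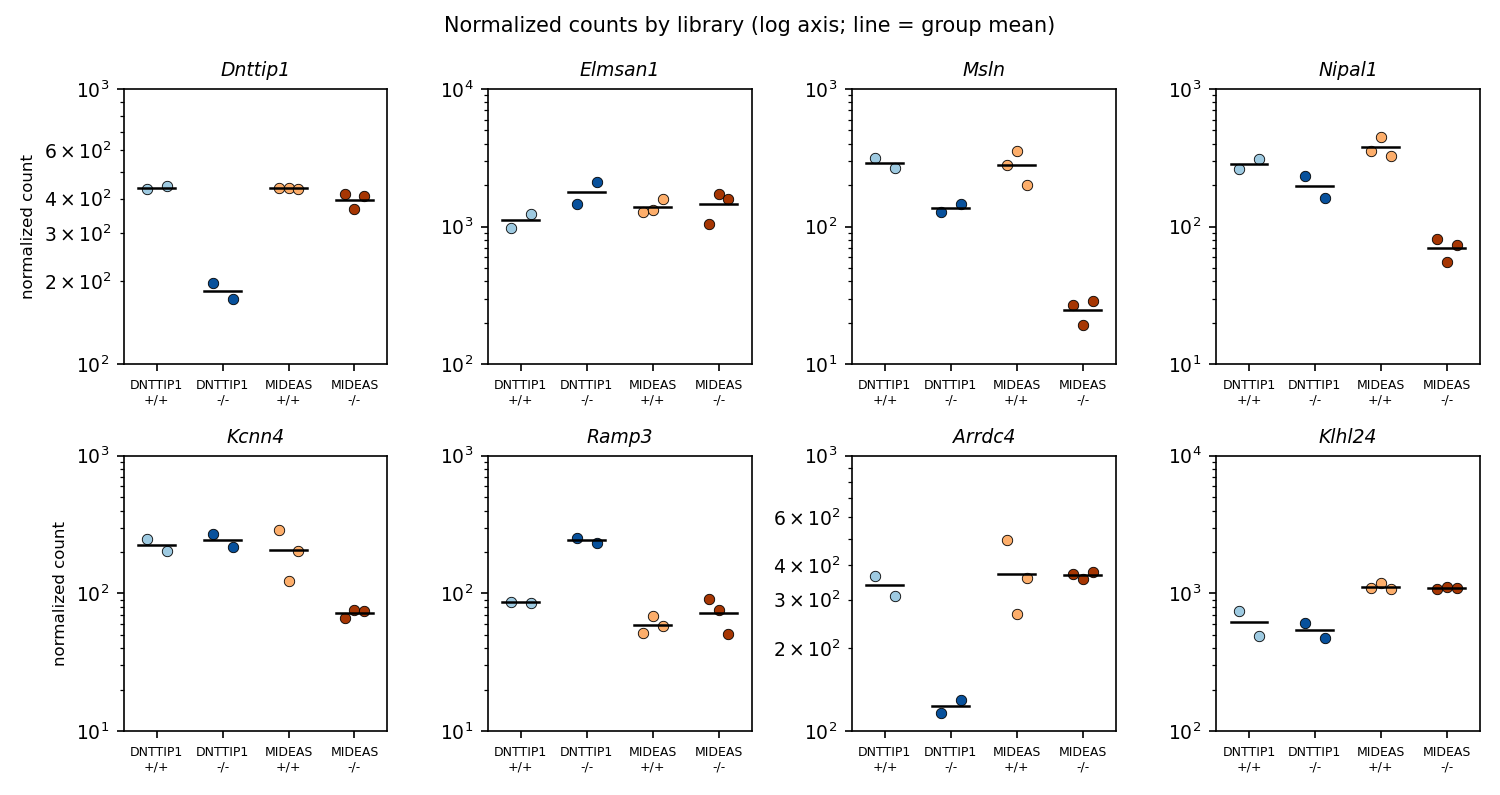
Normalized counts on a log axis of 8 genes in each of 10 libraries; points are libraries, colours are the groups on the x axis, and lines are group means. Dnttip1 was low only in DNTTIP1-/- libraries; Msln and Nipal1 were lowest in MIDEAS-/- and next lowest in DNTTIP1-/- libraries; Ramp3 was high and Arrdc4 low in DNTTIP1-/- libraries alone; and Klhl24 was higher in both groups of the MIDEAS family.

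By the smallest p among genes whose libraries did not overlap (1805 genes, 11.6%, were lower in MIDEAS-/- throughout), the leading gene was Msln (ENSMUSG00000063011, chromosome 17, 25748613 to 25754378), which encodes mesothelin, a surface glycoprotein of mesothelium. It had 26.8, 19.3 and 28.7 normalized counts in MIDEAS-/- MEFs against 128 and 145 in DNTTIP1-/- MEFs, with 282, 357 and 200.3 in the MIDEAS wild types and 316 and 267 in the DNTTIP1 wild types. Both knockouts lay below all wild-type libraries, and MIDEAS-/- lay below DNTTIP1-/-. Its log2 difference -2.42 (standard error 0.30, 95% interval -3.10 to -1.75, adjusted p = 0.137) changed little when 1 library was left out (-2.53 to -2.26), but no such fit called it (adjusted p from 0.154 to 0.918). The wild-type difference of Msln was -0.10 (95% interval -0.77 to 0.58). In bulk libraries such as these, fewer cells of a type and less RNA per cell cannot be told apart, and other mesothelial markers are given with the cell types.

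Other genes were low in MIDEAS-/- MEFs and not in MIDEAS+/+ MEFs. Nipal1, which encodes a relative of the NIPA magnesium transporters, had 81.6, 55.2 and 74.2 normalized counts in MIDEAS-/- MEFs against 234 and 161 in DNTTIP1-/- MEFs, with 354, 451 and 326 in the MIDEAS wild types and 263 and 312 in the DNTTIP1 wild types. Like Msln, it was lower in both knockouts than in every wild-type library and lowest in MIDEAS-/- (difference between knockouts -1.47, adjusted p = 0.446). Kcnn4, a calcium-activated potassium channel, had 66.1, 75.1 and 74.2 in MIDEAS-/- MEFs against 272 and 218 in DNTTIP1-/- MEFs; there the DNTTIP1-/- libraries lay beside the wild types of their family (248 and 203) and the MIDEAS-/- libraries alone were low (-1.75, adjusted p = 0.509). Prkar2b, a regulatory subunit of protein kinase A, had 753, 751 and 783 in MIDEAS-/- MEFs against 1223 and 1166 in DNTTIP1-/- MEFs (-0.65), with wild types between 857 and 1110.3, so that the knockouts lay on either side of the wild types.

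Ramp3, a partner protein of the calcitonin receptor-like receptor, was high in the DNTTIP1-/- libraries alone: 90.9, 75.8 and 50.4 in MIDEAS-/- against 252 and 233 in DNTTIP1-/- MEFs, with 51.3, 68.5 and 57.9 in MIDEAS+/+ and 86.5 and 85.8 in DNTTIP1+/+ (-1.77, adjusted p = 0.431). Klhdc8a (-0.73) and the mitotic kinase gene Pbk (-0.72) were also among the 12 leading lower genes, with adjusted p of 0.52. So were the processed pseudogenes Gm3756 (-0.86) and Gm2606 (-0.75), whose reads may be shared with near-identical copies and are uncertain.

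Among the genes that lay higher in all MIDEAS-/- libraries (1625 genes, 10.4%), Arrdc4 followed Dnttip1. Arrdc4 encodes an alpha-arrestin, a trafficking adaptor related to the thioredoxin-binding protein TXNIP. It had 371, 356 and 379 normalized counts in MIDEAS-/- MEFs against 116 and 130.1 in DNTTIP1-/- MEFs, and its wild-type libraries lay between 266 and 493. The 2 DNTTIP1-/- libraries were therefore the low ones, and the MIDEAS-/- libraries lay within the range of the wild types. Its log2 difference 1.57 (standard error 0.24, 95% interval 1.04 to 2.11, adjusted p = 0.334) ranged from 1.49 to 1.65 over the fits without 1 library.

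Adamts4, an aggrecan-cleaving metalloproteinase, had 856, 978 and 995 normalized counts in MIDEAS-/- MEFs against 565 and 589 in DNTTIP1-/- MEFs (0.70, adjusted p = 0.431), and its wild types differed the same way by 0.29. Exons of Adamts4 overlap those of another gene on the other strand. Pgm5, a phosphoglucomutase relative found at cell adhesions, had 1162, 934 and 1139 in MIDEAS-/- MEFs against 539.9 and 592 in DNTTIP1-/- MEFs (0.92). MIDEAS+/+ libraries had 652, 599 and 728, so that the MIDEAS-/- libraries stood above the other 7. A pair of lysosomal genes was among the 12 leading higher genes: the sialidase gene Neu1 had 749, 696 and 783 against 446 and 499 (0.65), and the cystine transporter gene Ctns had 533, 534 and 658 against 347 and 297 (0.83). The MIDEAS+/+ libraries overlapped the MIDEAS-/- ones for Neu1 (781, 747 and 742) and lay below them for Ctns (496, 405 and 516), and the wild-type differences were 0.33 and 0.37. Fam102a (0.84) and the low-count gene Ccdc158 (2.29; 23.7, 17.3 and 25.7 against 4.12 and 3.28 normalized counts) completed the 12 with Hmx1, which is described with the differences between knockout and wild type, and with the genes that follow.

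Several genes separated the families whichever genotype was compared. Klhl24, the substrate adaptor of a cullin-based ubiquitin ligase, had 1085, 1114 and 1103 normalized counts in MIDEAS-/- and 1093, 1184 and 1081 in MIDEAS+/+ MEFs, and 612 and 478 in DNTTIP1-/- and 748 and 488 in DNTTIP1+/+ MEFs. All 6 libraries of the MIDEAS family lay above all 4 of the DNTTIP1 family, by 1.02 between knockouts and 0.89 between wild types on the log2 scale. AW549877 (0.57 and 0.62), Fam214a (0.84 and 0.68), the p53 target Trp53inp1 (0.66 and 0.83) and the ankyrin repeat gene Ankrd12 (0.81 and 1.02) were higher in the MIDEAS family in the same 2 comparisons, and exons of AW549877 overlap Gm49286 on the same strand. The other 3 of the 8 genes with the smallest larger p of the 2 comparisons were lower in the MIDEAS family, and all 3 encode mitotic proteins: Cdca8 (-0.61 and -0.58), Birc5 (-0.53 and -0.54) and the kinetochore gene Knstrn (-0.61 and -0.59). With non-overlapping libraries and differences of at least 1 in size, 39 genes had the same sign in both comparisons and 16 had opposite signs.

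Genes of mitosis were lower in MIDEAS-/- than in DNTTIP1-/- MEFs as a group, and so were genes of DNA replication. Of 33 mitosis genes, 27 were nominally lower and 0 nominally higher (3.61% and 3.26% of all genes). Without overlap between libraries, 28 were lower (11.6% of all genes). All 33 had a negative difference, with a median of -0.54 against -0.01 for all genes. The nominally lower genes reached from Spc25 of the kinetochore (-0.36) to the centrosomal kinase gene Nek2 (-0.83). Of 31 DNA replication genes, 22 were nominally lower, all 31 had a negative difference, and the median was -0.48. None of these genes was called by limma. DESeq2 called 5 of the 33 mitosis genes and 0 of the 31 DNA replication genes lower, beside 66 of all 15569 genes.

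Cdc20, the activator of the anaphase-promoting complex, had 1037, 1039 and 1237 normalized counts in MIDEAS-/- MEFs against 1617 and 1737 in DNTTIP1-/- MEFs. Its wild types had 1178, 1071 and 1123 in the MIDEAS and 1420.4 and 1612 in the DNTTIP1 family, and exons of Cdc20 overlap Elovl1 on the other strand. The MIDEAS family was lower in both genotypes (-0.61, standard error 0.12, adjusted p = 0.522; wild types -0.43). The 4 subunits of the chromosomal passenger complex, which corrects the attachment of chromosomes to the spindle, differed by similar amounts: the kinase gene Aurkb by -0.63 between knockouts and -0.60 between wild types, Incenp by -0.47 and -0.42, the survivin gene Birc5 by -0.53 and -0.54, and the borealin gene Cdca8 by -0.61 and -0.58. They were put together after their values were seen. Cdca8, Knstrn and Pbk are not in the list of 33. Among replication genes, Rrm2, a subunit of ribonucleotide reductase, had 1155, 1257 and 1710.1 in MIDEAS-/- MEFs against 2037 and 2409 in DNTTIP1-/- MEFs (-0.71), and the licensing factor gene Cdc6 differed by -0.94. The helicase genes Mcm2 to Mcm7 differed by -0.38 to -0.69, and 5 of these 6 were nominally lower, all but Mcm2.

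The wild types differed the same way. Between MIDEAS+/+ and DNTTIP1+/+ MEFs, 20 of the 33 mitosis genes were nominally lower and 0 higher (median -0.42). Of the 31 replication genes, 12 were lower and 0 higher (median -0.38). Over all genes, 4.17% were nominally lower and 6.42% nominally higher in MIDEAS+/+. The knockout difference minus the wild-type difference had 0 nominal genes in either list, with medians of -0.15 and -0.11. Over all genes, 1.8% were nominally lower and 0.97% nominally higher in it. The mean centred log2 level of the mitosis list was -0.43, -0.09 and 0.17 in MIDEAS-/-, 0.37 and 0.49 in DNTTIP1-/-, -0.24, -0.40 and -0.17 in MIDEAS+/+ and 0.07 and 0.23 in DNTTIP1+/+ libraries. The lowest library was MIDEAS-/- replicate 1 and the highest DNTTIP1-/- replicate 2, and MIDEAS-/- replicate 3 lay among the DNTTIP1+/+ libraries. The counts rested on these libraries: without DNTTIP1-/- replicate 2 the nominally lower genes were 14 in mitosis and 2 in replication, and without MIDEAS-/- replicate 1 they were 21 and 11, with medians of -0.39 and -0.34, and without MIDEAS-/- replicate 2 those of replication were 14. The passage of each culture is not given in the sources used, and its part in the result was not tested.

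**Figure D3:**
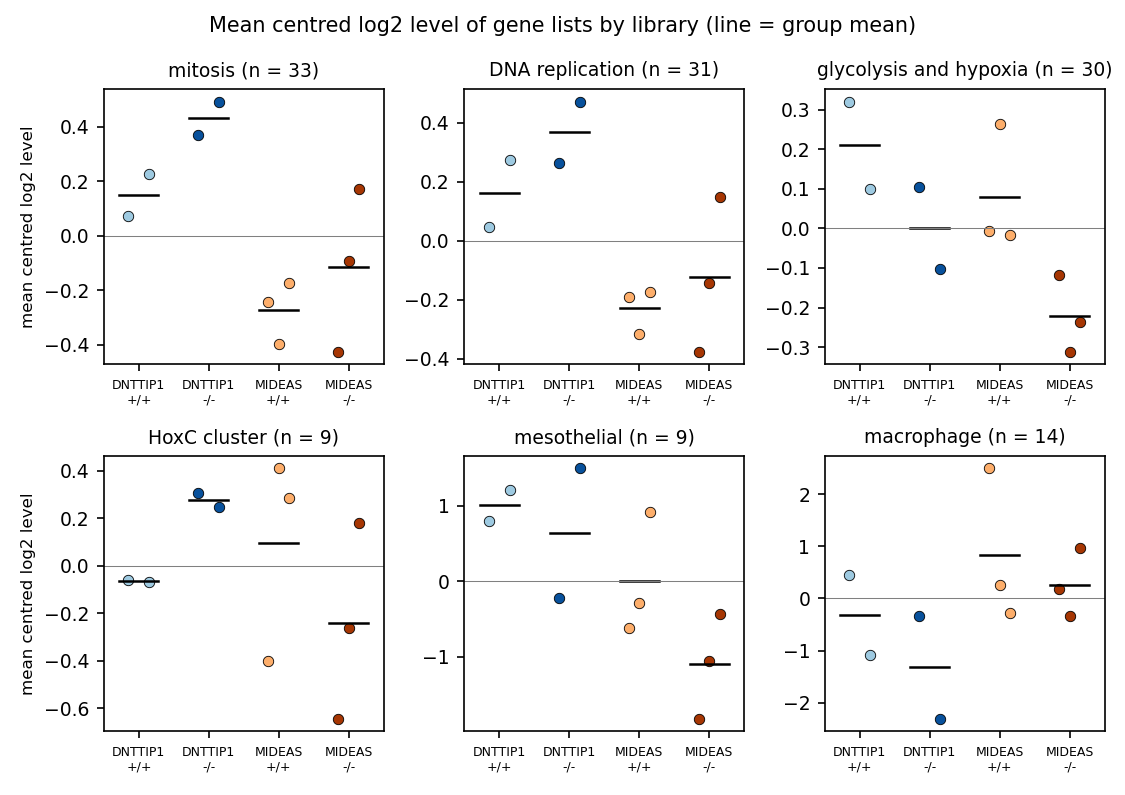
Mean centred log2 level of 6 gene lists in each of 10 libraries: each gene's log2(normalized count + 1) minus its mean over the libraries, averaged over the list's tested genes; points are libraries and lines are group means. The mitosis and DNA replication lists had lower group means in the MIDEAS family for either genotype, and MIDEAS-/- replicate 1 was the lowest library for mitosis (-0.43), DNA replication (-0.38), the HoxC cluster (-0.64) and mesothelial genes (-1.82).

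Promoters of mitotic genes are known to carry CCAAT boxes, bound by NF-Y, and the cell cycle homology element TTTGAA, bound by MuvB complexes. The 250 bases before the start of 3 such genes that were nominally lower, Cdc20, Cdca8 and Cdk1, are shown to give that sequence context (RefSeq, GRCm38.p6; 5′ to 3′ along the gene; capitals mark CCAAT and TTTGAA on either strand, written ATTGG and TTCAAA where they lie on the other strand).
Cdc20 (chr4:118437344-118437593, minus strand): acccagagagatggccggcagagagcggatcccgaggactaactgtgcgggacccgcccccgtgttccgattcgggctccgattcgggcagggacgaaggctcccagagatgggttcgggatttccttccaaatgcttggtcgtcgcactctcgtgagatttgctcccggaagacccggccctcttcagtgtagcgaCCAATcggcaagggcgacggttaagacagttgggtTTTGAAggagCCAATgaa
Cdca8 (chr4:124936918-124937167, minus strand): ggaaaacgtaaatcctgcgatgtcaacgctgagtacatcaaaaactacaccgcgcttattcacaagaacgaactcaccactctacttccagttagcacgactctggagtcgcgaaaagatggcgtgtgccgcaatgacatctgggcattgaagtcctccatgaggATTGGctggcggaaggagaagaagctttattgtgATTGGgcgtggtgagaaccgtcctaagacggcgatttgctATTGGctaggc
Cdk1 (chr10:69352913-69353162, minus strand): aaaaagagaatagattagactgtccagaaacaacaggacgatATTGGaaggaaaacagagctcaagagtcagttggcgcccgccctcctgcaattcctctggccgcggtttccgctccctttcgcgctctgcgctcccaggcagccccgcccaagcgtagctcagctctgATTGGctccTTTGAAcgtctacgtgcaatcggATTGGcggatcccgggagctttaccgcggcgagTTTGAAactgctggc
Cdc20 held 2 CCAAT and 1 TTTGAA, Cdca8 held 3 CCAAT and 0 TTTGAA, and Cdk1 held 3 CCAAT and 2 TTTGAA; none of these matches overlap. Of the 33 mitosis genes, 26 had a promoter in the table, taken at the first start listed: CCAAT was in 21 (80.8%), TTTGAA in 8 (30.8%) and both in 7 (26.9%). In the 24 DNA replication promoters these were 17 (70.8%), 4 (16.7%) and 4 (16.7%). Over all 27025 genes with a promoter of the same length the shares were 34.5%, 16.3% and 5.73%, and over the 10675 of these that were tested here 36%, 10.5% and 4.07%. Birc5 and Knstrn, lower in the same comparisons, held neither, so the letters were not shared by all the genes described.

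Counts in the lists that follow are to be read against 3.26% of all genes nominally higher and 3.61% nominally lower between the knockouts. Those between the wild types are to be read against 6.42% and 4.17%. Several counts moved with single knockout libraries. The list of 29 glycolysis and hypoxia genes had 30 tested entries, since a symbol can stand for more than 1 entry. Of these entries, 5 were nominally lower, 0 nominally higher and 26 had a negative difference (median -0.25). Between wild types 2 were nominally lower (median -0.10). Eno1, the enolase gene, had 6889, 6060.1 and 5983 normalized counts in MIDEAS-/- MEFs against 8992 and 8954 in DNTTIP1-/- MEFs (-0.51), and its reads may be shared with near-identical copies. The glucose transporter gene Slc2a1 (-0.40), Pgam1 (-0.47), Gapdh (-0.34) and Pkm (-0.33) were the other 4. Without MIDEAS-/- replicate 1 the nominally lower genes were 11, without DNTTIP1-/- replicate 1 they were 2, and without DNTTIP1-/- replicate 2 they were 3. All 22 cholesterol synthesis genes had a negative difference between knockouts (median -0.42), with the same median between wild types, and 3 were nominally lower, among them the mevalonate pathway kinase gene Pmvk (-0.55). That count was 1 without MIDEAS-/- replicate 1, 0 without MIDEAS-/- replicate 2 or DNTTIP1-/- replicate 1, 16 without MIDEAS-/- replicate 3 and 13 without DNTTIP1-/- replicate 2. Of 26 stress genes, 3 were nominally lower: the NRF2 targets Nqo1 (-0.98) and Gclm (-0.49), and Sdf2l1 of the endoplasmic reticulum (-0.46), with 5 without MIDEAS-/- replicate 1 and 11 without MIDEAS-/- replicate 3. Of 49 ribosomal protein genes, none was nominally different (median -0.16), and 14 were nominally lower without MIDEAS-/- replicate 1.

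Among markers of other cells, mesothelial and macrophage genes had the medians farthest from 0. Of 9 tested mesothelial genes, 5 were nominally lower in MIDEAS-/- MEFs and 8 had a negative difference (median -1.91; -1.05 between wild types). The 10 mesothelial markers summed to 548, 778 and 1116 normalized counts in MIDEAS-/-, 1219 and 2890.2 in DNTTIP1-/-, 982, 1952 and 1976 in MIDEAS+/+ and 1872 and 2345 in DNTTIP1+/+ libraries, and the defining markers Msln and Upk3b were above 0 in every library. Upk3b, a uroplakin of mesothelium, ranged widely within groups (31, 75.8 and 119.7 in MIDEAS-/- and 124 and 499.7 in DNTTIP1-/-), as did Upk1b (24.8, 56.5 and 33.6 and 80.4 and 252), whereas Msln did not. With either MIDEAS-/- replicate 1 or DNTTIP1-/- replicate 2 left out, 1 mesothelial gene was nominally lower, and 3 were without MIDEAS-/- replicate 2, DNTTIP1+/+ replicate 1 or DNTTIP1+/+ replicate 2. The part of mesothelial cells in the difference of Msln was not tested. The simple keratin genes Krt7 (-2.19), Krt18 (-1.50) and Krt19 (-1.25), which mesothelium also expresses, were the 3 nominally lower of 12 epithelial genes (0 without DNTTIP1-/- replicate 2), with Epcam between 0 and 18.5 normalized counts.

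Macrophage markers overlapped between the knockouts as a sum. Of the 14 tested genes, 8 were higher in MIDEAS-/- without overlap between libraries (10.4% of all genes). All 14 tested genes had a positive difference (median 1.61; 1.12 between wild types), and 3 were nominally higher: C1qa (2.58), C1qc (2.45) and Adgre1, which encodes the F4/80 antigen (2.52). The 16 markers summed to 1646, 1023 and 2405 in MIDEAS-/-, 1073 and 331 in DNTTIP1-/-, 7326, 1813 and 1163 in MIDEAS+/+ and 2065 and 691 in DNTTIP1+/+ libraries, so DNTTIP1-/- replicate 2 was lowest and MIDEAS+/+ replicate 1 highest. Adgre1 and Csf1r were above 0 in every library. Without DNTTIP1-/- replicate 2, MIDEAS-/- replicate 1 or MIDEAS-/- replicate 3 no macrophage gene was nominally higher, without DNTTIP1-/- replicate 1 or MIDEAS+/+ replicate 1 there were 7, and edgeR and DESeq2 gave 0. With the presence of Y-linked reads as a covariate, a fit chosen after seeing the data, 13 of 14 were nominally higher and 3 were called. The part of embryo sex in this result was not tested.

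Muscle genes split the libraries within groups. Myod1, the myogenic factor, had 0, 2.66 and 11.9 normalized counts in MIDEAS-/- MEFs against 2.06 and 45.9 in DNTTIP1-/- MEFs, and none of 16 striated muscle genes was nominally different between the knockouts (3 were lower without DNTTIP1-/- replicate 1). Of 16 chondrocyte genes, 4 were nominally lower: the cartilage collagen gene Col2a1 (3574, 4621 and 3836 in MIDEAS-/- and 5687 and 7244 in DNTTIP1-/-; -0.69), its regulators Sox9 (-0.56) and Sox6 (-1.22), and the link protein gene Hapln1 (-2.01). Without MIDEAS-/- replicate 1 or DNTTIP1-/- replicate 2 there was 1, and without MIDEAS-/- replicate 2 there were 2. The wild types had 6 nominally lower chondrocyte genes. Of 13 smooth muscle genes, the integrin gene Itga8 was nominally higher (0.62; 0.59 between wild types) and the desmin gene Des nominally lower (-1.01). None of 11 osteoblast, 9 adipocyte, 6 endothelial or 20 fibroblast genes was nominally different between the knockouts, and the median of the fibroblast list was -0.08. Of 13 neural genes, 2 were nominally lower, Elavl4 (-1.83) and Nefm (-1.49), with Snap25 at 0 in 6 of 10 libraries. Without DNTTIP1-/- replicate 1, 4 were lower, but 1 was without MIDEAS-/- replicate 1 or 2. Nefm had 119, 180 and 299 normalized counts in MIDEAS-/- MEFs against 252 and 1080.4 in DNTTIP1-/- MEFs, so the groups overlapped. Exons of Nefm overlap Nefl on the other strand. The erythroid markers summed to at most 45.7 normalized counts, and none was tested.

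**Figure D4:**
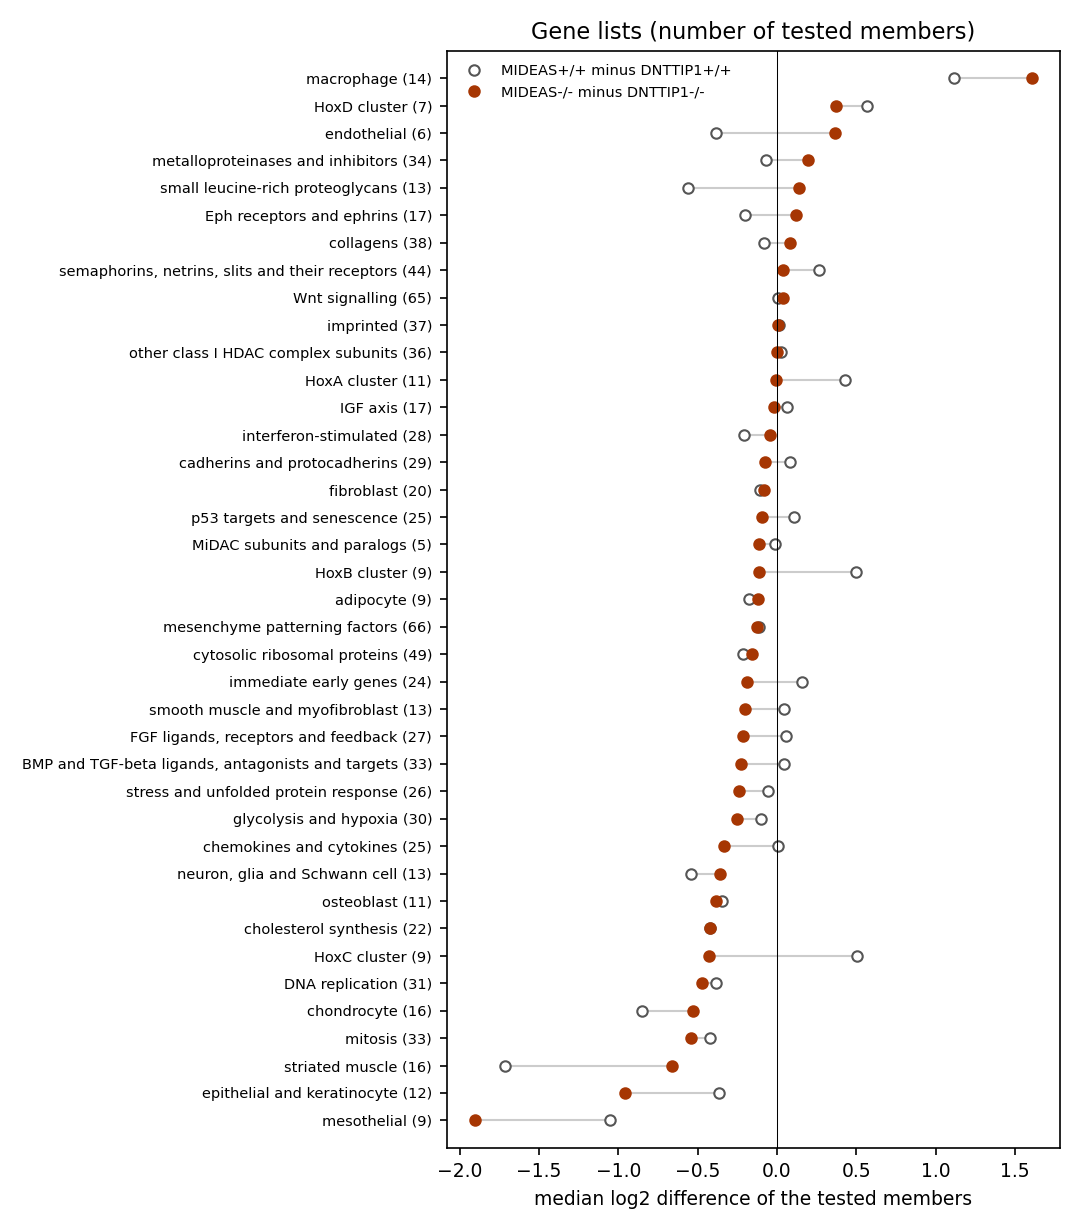
Median log2 difference of the tested members of 39 gene lists between the knockouts (filled points) and between the wild types (open points), ordered by the former; the number of tested members is in brackets. Mesothelial genes lay lowest (-1.91) and macrophage genes highest (1.61) between knockouts, the mitosis (-0.54 and -0.42) and cholesterol synthesis (-0.42 and -0.42) lists were close in both comparisons, and the HoxC cluster lay on opposite sides of 0 (-0.43 and 0.50).

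Hox genes mark where along the body a fibroblast came from. Of the tested genes of the HoxA (11), HoxB (9), HoxC (9) and HoxD (7) clusters, 4, 3, 4 and 1 were nominally higher in MIDEAS+/+ than in DNTTIP1+/+ MEFs and none was lower, beside 6.42% and 4.17% of all genes (medians 0.43, 0.50, 0.50 and 0.57). Between the knockouts no Hox gene was nominally higher and 2 were nominally lower, both of the HoxC cluster (cluster medians -0.01, -0.12, -0.43 and 0.37). Without DNTTIP1-/- replicate 2 no HoxC gene was nominally lower and the HoxD median was 0.00, against 0.73 without DNTTIP1-/- replicate 1, and without any other knockout library but MIDEAS-/- replicate 1 the HoxC count was 1. Hoxc10 had 374, 331 and 371 normalized counts in MIDEAS-/- MEFs against 442 and 525 in DNTTIP1-/- MEFs (-0.43). The wild types went the other way, with 313, 434 and 435 in MIDEAS+/+ MEFs against 275 and 274 in DNTTIP1+/+ MEFs (0.50). Hoxc9 differed by -0.49 between knockouts and 0.27 between wild types. In the knockout difference minus the wild-type difference, 9 Hox genes were nominally lower (2 of HoxA, 2 of HoxB and 5 of HoxC) and 0 higher, beside 1.8% and 0.97% of all genes, from -0.72 for Hoxc6 to -1.85 for Hoxa6.

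Of 66 other patterning factors, 7 were nominally lower in MIDEAS-/- MEFs and 0 higher (median -0.13), and between the wild types also 7 and 0 (median -0.12). Tbx3, a T-box factor of limb and body wall mesenchyme, had 437, 458 and 514 normalized counts in MIDEAS-/- MEFs against 709.9 and 662 in DNTTIP1-/- MEFs (-0.55), with wild types between 489 and 688. The hindlimb factor gene Pitx1 had 605, 626 and 521 against 1159 and 849.7 (-0.77). The others were Foxf1 (-0.61) and Foxf2 (-0.89), forkhead factors of gut and body wall mesenchyme, and the homeobox genes Barx1 (-1.47), Barx2 (-2.68) and Lhx8 (-2.56). Lhx8 had 8.26, 2.66 and 3.96 normalized counts in MIDEAS-/- MEFs against 108 and 8.75 in DNTTIP1-/- MEFs, where only replicate 1 was far above them. Barx2 had low counts, 6.2, 5.32 and 0 in MIDEAS-/- MEFs against 39.2 and 12.03 in DNTTIP1-/- MEFs. Foxf2 and Lhx8 also differed between wild types (-0.91 and -3.89), whereas the difference of Tbx3 there was 0.27. Barx2 differed between wild types by -1.69, at low counts and without overlap between libraries. Without DNTTIP1-/- replicate 1, 3 of the 66 were nominally lower and 3 higher, and without MIDEAS-/- replicate 2 the lower ones were 4.

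Among secreted signals, genes of the BMP and TGF-beta pathways held 6 nominally lower of 33, and 0 higher (median -0.23; 0.05 between wild types). These included the ligand gene Gdf5 (-1.60), the antagonists Fst (-0.45) and Grem1 (-0.50), the latent TGF-beta binding protein gene Ltbp1 (-0.31) and the inhibitory Smad6 (-0.46). Grem1 had 2832, 1944 and 2108 normalized counts in MIDEAS-/- MEFs against 3489 and 2956 in DNTTIP1-/- MEFs, and the groups did not overlap. Without DNTTIP1-/- replicate 2, 3 of the 33 were nominally lower, and without MIDEAS-/- replicate 3, 1 was. Of 25 chemokine and cytokine genes, 4 were nominally lower: Il11 (-1.50), Tslp (-1.76), Ccl2 (-0.87) and Cx3cl1 (-0.59), and 2 were without DNTTIP1-/- replicate 2 or MIDEAS-/- replicate 2. Il11 had 37.2, 47.9 and 41.5 in MIDEAS-/- MEFs against 90.7 and 159.7 in DNTTIP1-/- MEFs, and the MIDEAS-/- libraries lay below all others (139, 236 and 193 in the MIDEAS and 117 and 197 in the DNTTIP1 wild types).

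Of 65 Wnt pathway genes, 1 was nominally higher, the receptor gene Fzd8 (0.64), and 2 were lower, no larger shares than those of all genes. Wnt10a, a ligand, had 12.4, 8.64 and 0.989 normalized counts in MIDEAS-/- MEFs against 78.3 and 45.9 in DNTTIP1-/- MEFs (-3.26, standard error 0.92). The secreted antagonist gene Frzb had 459.5, 334 and 331 and 595 and 717 (-0.82). In the FGF list of 27, Fgf18 was nominally higher (1.16), and Fgf12 (-1.59) and the feedback factor gene Etv5 (-0.39) were lower. Fgf12 had 4.13, 3.99 and 7.91 normalized counts in MIDEAS-/- MEFs against 15.5 and 19.7 in DNTTIP1-/- MEFs. It thus reached the mean of 10 needed for testing only through the DNTTIP1-/- libraries. The guidance cue gene Sema3a (-0.67) was the 1 nominally lower of 44 semaphorin, netrin and slit genes, the ephrin gene Efnb3 (1.01) the 1 nominally higher of 17 Eph and ephrin genes, and the protease gene Pappa2 (-1.67) the 1 nominally lower of 17 IGF axis genes. None of 29 cadherin or 28 interferon-stimulated genes was nominally different. The interferon list turned with the DNTTIP1-/- library left out: 5 genes were nominally higher without replicate 1 (median 1.08) and 4 nominally lower without replicate 2 (median -1.42). Of 24 immediate early genes, Fosl1 (-0.96), Nr4a2 (-0.63) and Nr4a3 (-0.88) were nominally lower, and without DNTTIP1-/- replicate 2 none was lower and 1 of the list was higher. In the FGF, ephrin, IGF, imprinted and p53 lists the counts of 0 to 2 became 0 to 4 in either direction without 1 knockout library.

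In the matrix, 3 of 34 metalloproteinase and inhibitor genes were nominally higher and 0 lower: Adamts4, Adamts6 (0.58) and Adamts17 (2.02). Col2a1 was the only nominally different one of 38 collagen genes, and none of 13 small leucine-rich proteoglycan genes was nominally different. Of 37 imprinted genes, Zim1 was nominally higher (0.78; 0.99 between wild types) and Peg10 (-0.78) and Asb4 lower. Asb4 had 133, 87.1 and 148 normalized counts in MIDEAS-/- MEFs against 269 and 214 in DNTTIP1-/- MEFs. Of 25 p53 and senescence genes, Trp53inp1 and Bbc3 (0.34) were nominally higher, and Ccnd1, the cyclin D1 gene (-0.37), and Lmnb1 (-0.50) lower. Ccnd1 had 2321, 2281 and 2355 normalized counts in MIDEAS-/- MEFs against 3048 and 2956 in DNTTIP1-/- MEFs, and the MIDEAS-/- libraries lay within the range of the wild types (2189.7 to 2596).

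Whether a difference between the knockouts was more than the difference between the families was tested as the knockout difference minus the wild-type difference. limma called 0 genes (0%), with 151 (0.97%) nominally higher and 281 (1.8%) nominally lower, 432 in all. edgeR called 0 (413 at an unadjusted p under 0.05) and DESeq2 12 (518). The median distance from the estimate to either end of the 95% interval was 0.73, against 0.52 for the knockouts alone. Dnttip1 (95% interval 0.66 to 1.56) and Msln (-2.33, -3.28 to -1.37) kept nearly their whole knockout difference, as did Arrdc4 (1.47, 0.72 to 2.23), and that of Nipal1 was larger (-1.85, -2.68 to -1.03). Klhl24 (0.14, -0.43 to 0.70), Cdc20 (-0.18, -0.56 to 0.21) and Cdca8 (-0.03, -0.44 to 0.37) had intervals across 0.

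Hmx1 (ENSMUSG00000067438, chromosome 5, 35389108 to 35399730), a homeobox gene of the developing eye and ear, had the smallest p of that test (adjusted p = 0.409). It had 51.6, 106 and 38.6 normalized counts in MIDEAS-/- MEFs against 4.12 and 8.75 in DNTTIP1-/- MEFs, and 2.23, 3.07 and 5.48 in MIDEAS+/+ MEFs against 27.4 and 62.4 in DNTTIP1+/+ MEFs. It was thus high in the knockout of one family and in the wild type of the other, and the 2 differences were 3.10 and -3.27 (difference of differences 6.37, 95% interval 4.43 to 8.32). Exons of Hmx1 overlap 4930442P19Rik on the other strand. DESeq2 and the fit with replicate numbers as a block called it. Hmx1 was not alone in this, since DESeq2 also called Dnttip1, Msln, Nipal1, Adamts17, Col9a2 and Cobll1 in the same test.

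Other genes led by the same test in several patterns. Adamts17, a metalloproteinase, had 218, 306 and 222 in MIDEAS-/- libraries and at most 75.5 in the other 7, and its difference of differences was 2.97 (95% interval 1.55 to 4.40). Col9a2, a chain of cartilage collagen IX, had 63.5, 28.6 and 72 in MIDEAS+/+ libraries against 209 to 575 in all others, so MIDEAS+/+ stood apart, and the interval between the knockouts crossed 0 (knockouts 0.62, 95% interval -0.22 to 1.45; wild types -2.02). Syt13, a synaptotagmin gene, was likewise lowest in MIDEAS+/+ (84.7, 132 and 292) and highest in MIDEAS-/- libraries (777, 698 and 769).

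With a negative difference of differences, the leading genes beside Msln and Nipal1 included Cobll1, a cordon-bleu relative (-1.68, 95% interval -2.47 to -0.90), the neuropeptide Y receptor gene Npy1r (-1.93, -2.93 to -0.93) and the inositol transporter gene Slc5a3 (-1.09, -1.64 to -0.53). Npy1r had 63, 73.8 and 55.4 normalized counts in MIDEAS-/- MEFs against 112 and 182 in DNTTIP1-/- MEFs. The wild types had 186, 265 and 347 in MIDEAS+/+ MEFs against 147 and 154 in DNTTIP1+/+ MEFs. In Rb1cc1, a subunit of the complex that starts autophagy, the knockouts lay together and MIDEAS+/+ alone was high: 1687, 1787 and 1839.7 in MIDEAS-/- and 1688 and 1768 in DNTTIP1-/-, with 2816, 2861 and 2506 in MIDEAS+/+ MEFs against 1663 and 1744 in DNTTIP1+/+ MEFs (knockouts 0.04, 95% interval -0.20 to 0.27; wild types 0.68).

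**Figure D5:**
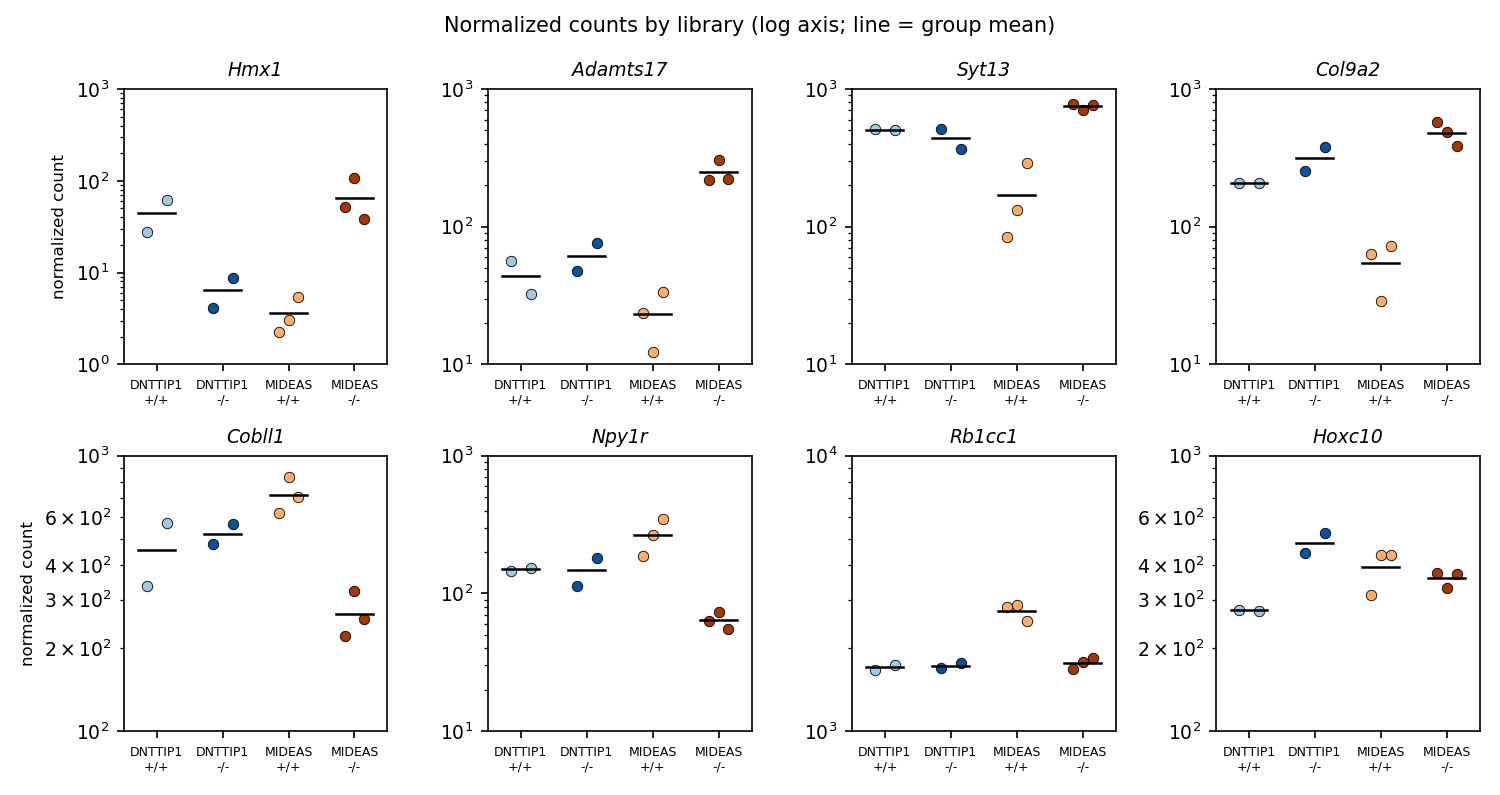
Normalized counts on a log axis of 8 genes in each of 10 libraries; points are libraries, colours are the groups on the x axis, and lines are group means. Hmx1 was high in MIDEAS-/- and DNTTIP1+/+ libraries, Adamts17 in MIDEAS-/- libraries and Rb1cc1 in MIDEAS+/+ libraries, Syt13 and Col9a2 were low in MIDEAS+/+ libraries, Cobll1 and Npy1r were low in MIDEAS-/- libraries, and Hoxc10 was lowest in DNTTIP1+/+ and highest in DNTTIP1-/- libraries.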

How the data were processed

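RNA-seq libraries of 10 MEF lines were compared. According to the study's methods, mRNA-enriched libraries were read by Illumina sequencing, adaptors and short reads removed, and the rest aligned to mm10 and deduplicated. Tools named in the submitters' processing notes were STAR 2.5.2b, Picard, SAMtools 1.3.2, DESeq2, cutadapt 1.11 and Trim Galore 0.4.5. The sources used here give neither the counting program nor its strand setting. The deposited signal is a normalized count: the authors divided reads per gene by 1 size factor per library. Removing duplicates lowers highly expressed genes more than others. All values were whole multiples of 1 read's value (tolerance 0.01), so reads could be recovered. Tables of the authors' own comparisons (log2 fold changes, p-values) were not used.

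Values were tested as log2(value + 1) with limma 3.58.1 (trend, robust) in R 4.3.3, 1 fit of 4 groups, over genes with a mean of at least 10. A gene with a mean under 10 in 1 knockout group could pass this filter through the other group. The pseudocount understates differences of low genes. p-values, Benjamini-Hochberg adjusted over 15569 genes and called under 0.1, measure the spread between lines. In each group, libraries differed by more than sampling noise (chi-square per gene 18.2 to 61.7). Genes were placed with GENCODE vM21, in which exons of 1212 overlap a gene of the same strand and those of 4619 a gene of the other strand. The rule for named genes took, since none was called, the smallest p: 12 genes per direction among those with non-overlapping knockout libraries, 8 with the same sign in both comparisons, 6 per direction of the difference of differences, 8 whose wild-type difference was opposite or under 0.25 of the knockout difference, MiDAC subunits, up to 3 per list, and sex-linked genes. It gave 145 genes beside the sex-linked ones, of which the text names some. Other members of lists were named for a nominal p, and a few genes are not reported here. The genes compared and the 41 lists (39 with tested members) were chosen with earlier results of these data known. Alternatives were other pseudocounts, filters, TMM scaling, no trend, a stricter threshold, the 2 compared groups alone, chromosomes X and Y kept, a replicate block, edgeR 4.0.16 and DESeq2 1.42.0 on recovered reads, and each library left out. The fit was tested on simulated data. Figures used matplotlib 3.10.9.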

Additional observations from a re-analysis of the deposited data

How the results depend on the processing

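The count of genes called between the knockouts was 0 in limma and stayed 0 under other pseudocounts, means of at least 1 or 50, edgeR, the stricter threshold, chromosomes X and Y kept, the 2 groups alone, the replicate block and each library left out. It was 1 without a filter (Msln), 2 with TMM scaling (Msln and Dnttip1) and 119 in DESeq2. Without a trend it was 3 (Msln, Dnttip1 and Gm8281, the last named after its values were seen). With Y-linked reads as a covariate, an alternative chosen after seeing the data, it was 9, of which 3 were macrophage genes. Between wild types it was 261 in DESeq2 and 0 to 230 with 1 library left out. The knockout difference minus the wild-type difference gave 12 in DESeq2 and 0 throughout the fits without 1 library. With replicate numbers as a block the wild-type count was 99 and that of the difference of differences 3 (Itga3, Cobll1 and Hmx1). Libraries with the same number in both families deviated together (r of deviations 0.22 to 0.46), but the labels do not say that a number marks a shared litter or day. With 2 libraries in a DNTTIP1 group, their deviations mirror each other. Each r with the other number was therefore equal in size and negative, and the values are not independent. Replicate 1 of both wild types also had Y-linked reads. The r across genes was 0.066 to 0.395 with 1 library left out. Nominally lower mitosis genes were 14 to 31, and replication genes 2 to 24, with 1 library left out, 14 and 10 without the 3 libraries with Y-linked reads (chosen after seeing the data), and replication genes 12 with the 2 groups alone; the causes were not tested. Of the genes named by the rule, 13 values changed sign, all of genes with an adjusted p of 0.816 or more. With 1 library left out, log2 differences ranged from -1.46 to 0.28 for Acta1, 0.79 to -0.053 for Hoxd13, -3.70 to 0.24 for Myod1, 1.12 to -0.21 for Tek, -0.11 to 0.11 for Trerf1, -2.02 to 0.46 for Cmpk2, -1.89 to 0.30 for Dhx58, 1.91 to -0.24 for Cd36 and -0.18 to 0.00067 for Hdac2. Without the libraries with Y-linked reads Cmpk2 was 0.46 and Dhx58 0.30, and in edgeR Trerf1 was 0.0047. Depth was 12339970 to 19761295 reads per library, and groups held 2 or 3 lines, so a library left alone in its group was assumed to vary like those of the other groups.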
